A study of Mus musculus with 16 samples.

Results

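The effect of a mammary tumor on the bone marrow (BM) was read from 4 single-cell RNA-seq libraries of CD45+ BM cells, 2 from vehicle-treated 2208L tumor–bearing mice and 2 from non–tumor-bearing WT mice. Barcodes with more than 200 and fewer than 6000 detected genes and at most 10% mitochondrial UMIs were kept, which left 20172 of the 73176 cells that pass this filter in the whole series. The WT libraries held 4579 and 4394 kept cells and the vehicle libraries 5112 and 6087. The vehicle group consisted of female BALB/c mice that had received a chunk of the 2208L tumor, a transplantable syngeneic Trp53-null model of triple-negative breast cancer, in a mammary fat pad at 7 to 8 weeks of age. They were given methylcellulose by mouth, 5 times over 6 days by the study's text and for 7 days by the series record. The WT group consisted of untreated female BALB/c mice without a tumor, whose age is not given in the sources used here. Tumor growth, transplantation surgery and dosing with the vehicle therefore separate the groups together and cannot be told apart. Each sample pooled 3 mice, and live CD45+Ter119- cells of the tibia and femur were sorted by FACS and tagged with CellPlex oligos before 10x Genomics libraries were made.

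Adult BM produces neutrophils along a fixed path. Proliferating pro- and pre-neutrophils (pro/preNeu) fill their first granules with Elane and Mpo, nondividing immature neutrophils make the specific granule proteins Ltf, Camp and Ngp, and mature neutrophils gain Cxcr2 and leave for the blood. B cells are made in the same tissue, from pro- and pre-B cells that carry the surrogate light chain to immature cells and, at last, recirculating IgD+ cells. Tumors that draw neutrophils are known for raising their production in BM, and the comparison asks what else in the marrow differs with such a tumor.

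The kept cells of WT mice held 27006941 and 27200103 UMIs and those of tumor-bearing mice 34433920 and 41068479, with a median of 4113 to 5330.5 UMIs per cell. Ptprc, which encodes CD45, was detected in 93.2% to 96.8% of cells, and the beta globin gene Hbb-bs reached at most 1.80 CPM, which are UMI counts of a gene divided by all UMIs of the sum and scaled by 1e+06. No barcode was shared between libraries. Tagged samples that were run together and split by tag would give the same, so this does not show separate runs. The replicates of a group differed by more than independent draws of UMIs would, with a chi-square per degree of freedom of 4.44 for WT and 2.72 for vehicle. UMIs of 1 cell are not independent, so this cannot show a spread beyond the sampling of cells. Each library was counted as 1 sample. Whether the replicates are parts of 1 pool of mice is not stated, and p values measure the spread between these libraries, which may be technical. With 2 libraries a side, an exact permutation test cannot go below p = 0.333, so differences were tested with edgeR over the 6 CD45+ BM libraries, which include 2 from IACS-70654–treated mice.

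The marrow of tumor-bearing mice held a larger share of neutrophils and smaller shares of each other cell class that could be tested. Among the tested classes, 9 of 9 passed an adjusted p under 0.05 (100%, edgeR quasi-likelihood test on cell numbers). The widest gaps were in lymphoid cells, whose shares were 4.6 to 11.5 times smaller. Neutrophils made up 68.4% and 66.3% of WT cells, against 88.1% and 89.1% of vehicle cells, which differ by a log2 ratio of 0.40 ± 0.03 (SE, adjusted p = 5.61e-13, edgeR).

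Natural killer (NK) cells and innate lymphoid cells (ILC), led by Ncr1, Klre1 and Gzma, were 1.14% and 0.751% of WT cells. They were 0.098% and 0.066% of vehicle cells, which rests on 5 and 4 cells, and the log2 difference was -3.52 ± 0.42 (adjusted p = 9.93e-09, edgeR). B cells past the precursor stage were 6.05% and 7.06% of WT cells, against 0.919% and 0.772% of vehicle cells, which differ by a log2 ratio of -2.96 ± 0.15 (adjusted p = 6.75e-17, edgeR). Both kinds of cell thus held smaller shares of vehicle cells, and, as in each tested class, the shares did not overlap between groups. T cells, led by Cd3g and Cd3e, were 1.53% and 1.16% against 0.333% and 0.246%, which differ by a log2 ratio of -2.23 ± 0.28 (adjusted p = 3.39e-08, edgeR). Summed neutrophil markers in the T cell class stood at 67441 and 32260 CPM in WT against 140247 and 123346 in vehicle libraries, and in NK cells and ILC at 11241 and 9450 against 27366 and 30442. Median UMIs per cell of NK cells and ILC were 5413 and 5071 against 11122 and 9884, and the part of these values in the shares was not tested. Precursor stages of the B lineage, the pro- and pre-B cells that express Vpreb1, Igll1 and Rag1, were 8.30% and 7.99% against 1.78% and 1.76%, which differ by a log2 ratio of -2.20 ± 0.12 (adjusted p = 1.76e-16, edgeR).

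The differences were smaller outside the lymphoid lineages. Cells led by genes of plasmacytoid dendritic cells (pDC), such as Siglech and Ccr9, had a log2 difference of -1.44 ± 0.22. Summed neutrophil markers in this class stood at 22414 and 17892 CPM in WT against 53047 and 28076 in vehicle libraries, and their part in the share was not tested. Basophils and mast cells, led by Mcpt8 and Prss34, were 0.939% and 1.14% of WT cells, against 0.548% and 0.460% of vehicle cells, which differ by a log2 ratio of -1.05 ± 0.27 (adjusted p = 0.00058, edgeR). Monocytes were 6.88% and 7.42% against 4.64% and 4.11%, with a log2 difference of -0.72 ± 0.10. Stem and progenitor cells, led by Mecom and Hlf, were 0.852% and 0.751% against 0.411% and 0.493%, which differ by a log2 ratio of -0.81 ± 0.29 (adjusted p = 0.00923, edgeR). Without WT replicate 1 or vehicle replicate 1 the latter no longer passed, with adjusted p values of 0.0522 and 0.0837 (edgeR). Macrophages (5, 3, 0 and 2 cells) and plasma cells (2, 6, 6 and 5 cells, WT libraries first) were too few to test. Clusters that met no naming rule held 4.15% and 5.33% of WT and 2.37% and 2.28% of vehicle cells, and some of them mixed RNA of neutrophils with that of monocytes or B cells. Others were led by genes known from progenitors. Dntt and Flt3 led 65 and 68 WT against 39 and 45 vehicle cells, Mpo and Elane 19 and 25 against 20 and 25. Pf4 and Car1 led 25 and 43 against 4 and 11. The tested class of stem and progenitor cells leaves these out, so its share covers only part of the progenitors.

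Shares of 1 total are tied to each other, so a gain of neutrophils and a loss of other cells cannot be told apart from shares alone. When cell numbers were scaled by TMM, which centers on the typical class, lymphoid classes stayed lower (B cells -1.12, NK cells and ILC -1.70, pro- and pre-B cells -0.36, T cells -0.39 and no longer past the threshold), whereas monocytes (1.13), basophils and mast cells (0.79), stem and progenitor cells (1.02) and pDC (0.40, not past the threshold) turned to higher.

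**Figure D1:**
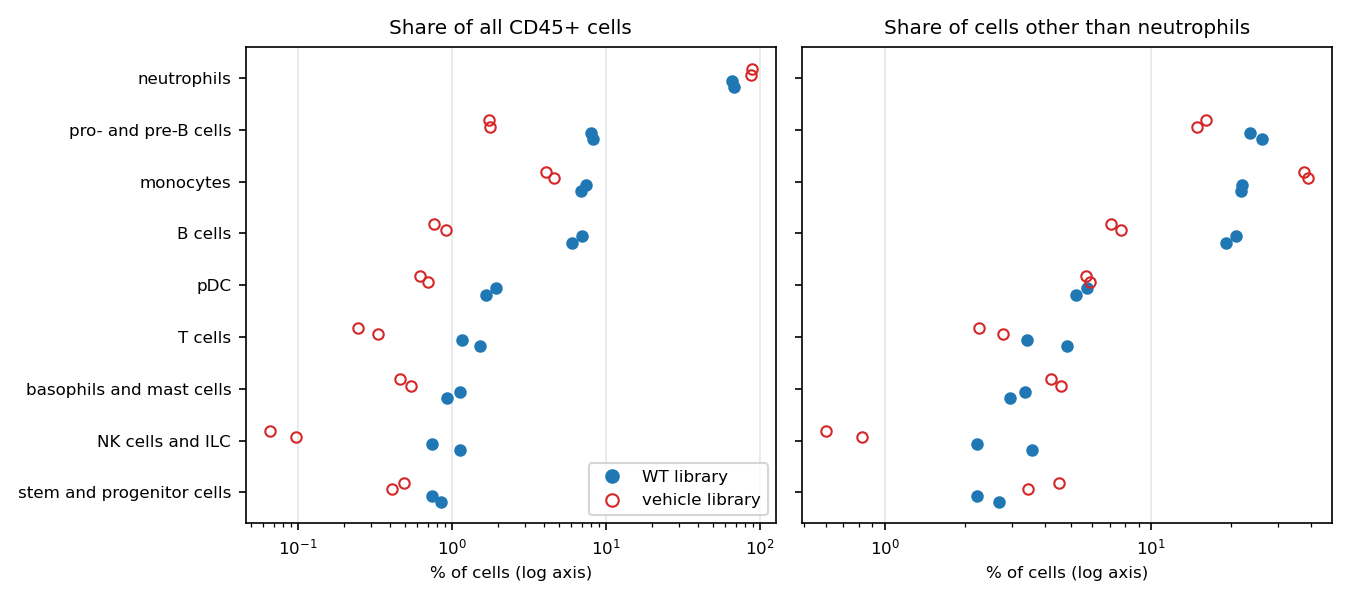
Share of each cell class in the 4 libraries, in percent on a log axis, among all CD45+ cells (left) and among cells other than neutrophils (right). Each point is 1 library, filled for WT and open for vehicle. On the left, each tested class but neutrophils lies lower in vehicle libraries, and on the right monocytes lie higher at 38.9% and 37.6% against 21.7% and 21.997%.

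Among cells other than neutrophils, of which there were 1449 and 1482 in WT against 609 and 665 in vehicle libraries, monocytes held a larger share and lymphoid classes smaller ones. Here 6 of 8 classes passed the threshold (75%). Monocytes made up 21.7% and 21.997% of these WT cells and 38.9% and 37.6% of the vehicle cells, which differ by a log2 ratio of 0.81 ± 0.10 (adjusted p = 1.51e-07, edgeR). B cells still fell, from 19.1% and 20.9% to 7.72% and 7.07%, with a log2 difference of -1.44 ± 0.16 (adjusted p = 3.43e-08, edgeR), and so did pro- and pre-B cells, by 0.68 ± 0.13 on the log2 scale (adjusted p = 3.92e-05, edgeR). With cell numbers scaled by TMM the difference of pro- and pre-B cells was -0.21 and did not pass (adjusted p = 0.182, edgeR), while that of B cells was -0.97 and still passed. Cells counted as other than neutrophils include unnamed clusters led by genes of neutrophils or their precursors. One led by Cstdc5 and Stfa3 held 25 and 33 WT against 35 and 33 vehicle cells. Others, led by Ngp and Ly6g or by Mpo and Elane, held 45 and 57 against 18 and 23, and 19 and 25 against 20 and 25. Their part in these shares was not tested.

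NK cells and ILC had a log2 difference of -2.02 ± 0.46 among the nonneutrophils. T cells (-0.71 ± 0.30) and stem and progenitor cells (0.70 ± 0.30) passed narrowly, each with an adjusted p of 0.0363 (edgeR). The T cell call was lost without WT replicate 1 (-0.45), vehicle replicate 1 (-0.87) or vehicle replicate 2 (-0.56), and that of stem and progenitor cells without WT replicate 2 (0.57), vehicle replicate 1 (0.87) or vehicle replicate 2 (0.49). The difference of basophils and mast cells (0.47 ± 0.28, adjusted p = 0.115, edgeR) and that of pDC (0.08 ± 0.23, adjusted p = 0.725, edgeR) did not pass. For the latter, the shares of 5.25% and 5.74% in WT against 5.91% and 5.71% in vehicle libraries overlapped.

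UMIs summed over all kept cells of a library carry this change of makeup together with changes within cells. Of 15774 genes tested, 1520 were higher (9.64%) and 2327 lower (14.8%) in vehicle libraries, counting those with both an edgeR adjusted p below 0.01 and a change beyond 0.5 log2 units. The genes of classes with smaller shares led the decreases. Of 25 genes of early B lymphopoiesis, 23 fell and 1 rose, with a median log2 change of -1.68, where the median over all genes tested was -0.06. Ebf1, a transcription factor that specifies the B lineage, stood at 731 and 737 CPM in WT against 155 and 134 in vehicle libraries, a log2 change of -1.99 ± 0.07 (adjusted p = 3.1e-11, edgeR). Cd79a, a signaling chain of the B cell receptor, fell from 138 and 145 to 25.1 and 25.1 CPM. Of 27 genes of T and NK cells 24 fell and none rose, led by Gzma, the cytotoxic granule protease granzyme A, at 72.0 and 49.4 CPM against 7.93 and 4.02. MHC class II genes fell in 10 of 12 cases, pDC genes in 14 of 16 and peripheral B cell genes in 14 of 20, while 3 of the latter rose, Cxcr5 and Ltb among them. Ltb missed the threshold of size on library totals (0.43) and with 1 common set of class shares (0.22).

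Neutrophil genes led the increases. Of 18 specific granule proteins 15 rose and 1 fell, of 26 genes listed for effectors of suppressor cells 17 rose, and of 17 genes linked to STAT3 or to emergency granulopoiesis 12 rose. Wfdc17, a small secreted protein with a whey acidic protein domain, rose from 172 and 164 to 1165 and 1211 CPM, a log2 change of 3.18 ± 0.04 (adjusted p = 2.61e-15, edgeR). Prok2, a secreted prokineticin known to be induced by G-CSF, rose from 17.6 and 13.5 to 99.5 and 99.4 CPM. Socs3, a feedback inhibitor of cytokine signaling and a STAT3 target, rose from 10.4 and 10.0 to 41.0 and 39.1 CPM. None of the WT values of these genes reached the vehicle values, which the rule for naming the largest changes requires. Socs3 was named from its list, where no such condition applies. Of 19 genes of glycolysis 13 rose, and of 76 cytoplasmic ribosomal proteins 19 fell and none rose.

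These counts depend on the scaling. TMM factors were 1.11 and 1.12 for the WT and 0.877 and 0.872 for the vehicle libraries, and scaling by library totals alone moved the median log2 change of all genes by -0.35. It gave 535 genes higher and 5592 lower, or 8.7% of calls higher in place of 39.5%, and DESeq2 gave 1473 and 1488, or 49.7%. On library totals specific granule proteins were called higher in 7 and lower in 1 of 18 cases, genes of glycolysis higher in 4 and lower in 1 of 19, and ribosomal proteins lower in 74 of 76. CPM values here carry no TMM factors, whereas log2 changes include them unless another scaling is named. When each library's class means were weighted by 1 common set of class shares, 209 genes were higher and 400 lower. This setting used limma on log2(CPM + 1) without TMM factors. It thus changed the test and the scaling too, and the part of the class shares alone was not tested. Early B lymphopoiesis genes were then called lower in 1 of 25 cases and specific granule proteins higher in 2 of 18, and Wfdc17 (2.55), Prok2 (2.18) and Socs3 (1.35) were still called higher.

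Within neutrophils, named by stage, fewer genes differed, and the same secreted and interferon-induced transmembrane proteins rose at each stage. The clusters were made without integration from these libraries and the IACS-70654 libraries, and their genes decided the stage, so stage-specific sums also carry which clusters make up a stage. Summed neutrophil markers in pro/preNeu stood at 304548 and 297520 CPM in WT against 344971 and 353819 in vehicle libraries. Of 21 trafficking receptors tested there, 5 rose (Cxcr2, Ccr1, C5ar1, Cd177 and Ly6g), where 2.12% of all genes did, and none fell. The part of RNA from later stages in the pro/preNeu calls was not tested. Pro/preNeu numbered 546, 548, 693 and 845 cells (WT libraries first), immature neutrophils 1434, 1290, 1726 and 2061, and mature neutrophils 1150, 1074, 2084 and 2516. Median UMIs per cell were higher in vehicle libraries at each stage, with the widest gap in immature neutrophils, at 4547.5 and 4570.5 against 6601 and 6533, and the part of this gap in the gene changes was not tested.

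**Figure D2:**
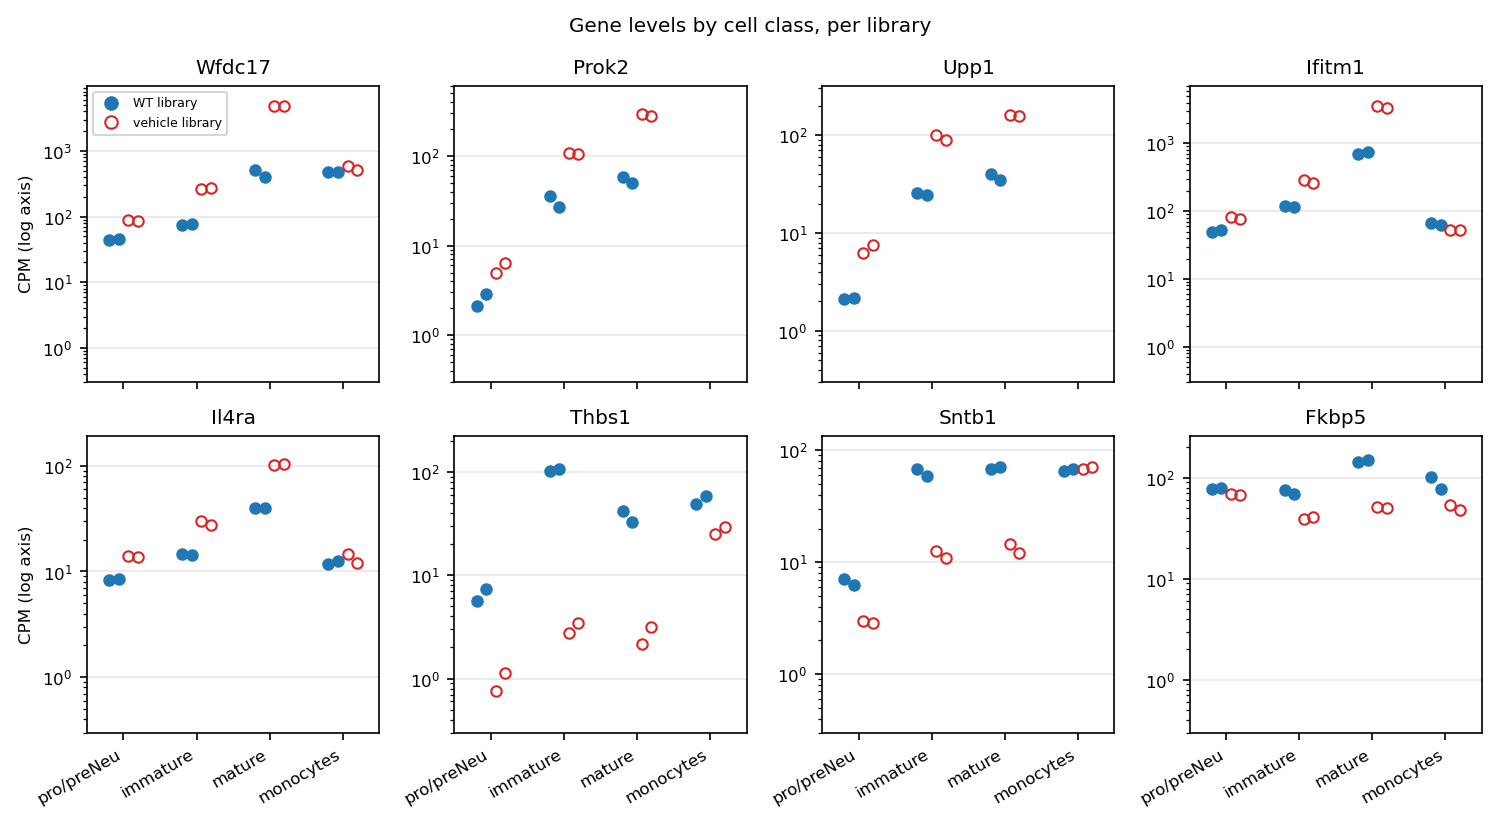
Expression of 8 genes in each library, in CPM on a log axis, summed over pro/preNeu, immature neutrophils, mature neutrophils and monocytes. Filled points are WT and open points vehicle libraries, and Prok2 and Upp1 were not tested in monocytes. Wfdc17 shows its widest gap in mature neutrophils, at 504 and 407 against 4826 and 4823 CPM, and Thbs1 in immature neutrophils, at 102 and 108 against 2.74 and 3.43.

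In pro/preNeu, 256 of 12079 genes were higher (2.12%) and 208 lower (1.72%). Cmah, the hydroxylase that makes N-glycolylneuraminic acid, rose most among the genes named by rule, from 46.9 and 49.5 to 153 and 169 CPM, a log2 change of 1.89 ± 0.08 (adjusted p = 1.23e-14, edgeR). Pim1, a serine-threonine kinase and STAT target, rose from 32.0 and 31.6 to 77.7 and 78.0 CPM. Ifitm3, an interferon-induced transmembrane protein, rose from 312 and 311 to 675 and 702 CPM. Of 16 STAT3-linked genes 5 rose (Bcl3, Pim1, Junb, Il4ra and Lcn2) and none fell, and of 9 stefins and cystatin-domain genes, intracellular inhibitors of cysteine proteases, 5 rose and none fell. The near-identical stefin copies share sequence, and counting may split their reads, so their single values are uncertain.

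Kit, the stem cell factor receptor, stood at 27.2 and 22.4 CPM in WT against 8.89 and 9.45 in vehicle libraries, a log2 change of -1.28 ± 0.13 (adjusted p = 1.5e-07, edgeR). Vcam1 (-1.01 ± 0.08), the cell cycle kinase Cdk6 (-0.59 ± 0.07) and the transcription factors Gfi1 (-0.51 ± 0.08), Zeb2 (-0.58 ± 0.08) and Myc (-0.67 ± 0.16) also fell. Their calls were less firm, since Cdk6 (-0.46), Gfi1 (-0.49) and Myc (-0.47) missed a threshold without WT replicate 2, Zeb2 (-0.49) and Myc (-0.68) without vehicle replicate 1, and Gfi1 (-0.49) and Myc (-0.65) without vehicle replicate 2, and DESeq2 did not call Myc. Summed markers of stem and progenitor cells, a list that holds Kit and Cdk6, stood at 305 and 314 CPM in WT against 185 and 178 in vehicle pro/preNeu, and those of macrophages, which hold Vcam1, at 169 and 187 against 119 and 114. Their part in these changes was not tested. Of 38 S-phase genes 1 fell and none rose. The primary granule proteins Elane (-0.48 ± 0.09) and Mpo (-0.32 ± 0.07) did not pass the threshold of size, although both were lower in each vehicle library. Elane passed without WT replicate 1 (-0.68), without vehicle replicate 1 (-0.62) and on library totals (-0.62). Of the 2 clusters of this class led by Mpo or Elane, one made up 31.0% and 33.6% of WT and 29.0% and 23.9% of vehicle pro/preNeu, and the other 6.04% and 10.4% against 8.95% and 8.28%. Library totals alone gave 153 genes higher and 581 lower, and DESeq2 165 and 71. Without vehicle replicate 2 the call fell to 189 and 104 genes.

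In immature neutrophils, 462 of 10472 genes were higher (4.41%) and 357 lower (3.41%), and the widest change was a loss. Thbs1, the matrix glycoprotein thrombospondin-1, stood at 102 and 108 CPM in WT against 2.74 and 3.43 in vehicle libraries, a log2 change of -4.80 ± 0.11 (adjusted p = 5.57e-59, edgeR). Sntb1, a syntrophin adapter, fell from 68.5 and 59.4 to 12.6 and 10.98 CPM, and Pde4b, a phosphodiesterase that degrades cAMP, from 75.9 and 63.4 to 25.2 and 24.6. All 3 genes were lower by more than 2 times in each vehicle library than in each WT library. Genes with the largest changes were named only where the groups did not overlap.

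Upp1, uridine phosphorylase, rose from 25.4 and 24.7 to 101 and 88.3 CPM, a log2 change of 2.18 ± 0.08 (adjusted p = 8.04e-42, edgeR). Wfdc17 (2.09 ± 0.05), the aspartic protease Asprv1 (2.07 ± 0.06) and Prok2 (2.02 ± 0.08) followed. Ifitm2 rose from 595 and 623 to 1536 and 1495 CPM, and Tspo, a protein of the outer mitochondrial membrane, from 513 and 497 to 1135 and 1127. Of 9 stefins 6 rose and none fell. Of 15 STAT3-linked genes 7 rose and none fell, Socs3 among them from 4.59 and 5.89 to 13.3 and 12.5 CPM. S100a8, one chain of calprotectin, rose by 0.57 ± 0.02 on the log2 scale, from 116837 and 115720 to 143374 and 142310 CPM, and by 0.30 on library totals, below the threshold of size. The specific granule proteins Ltf (0.16 ± 0.02), Camp (0.06 ± 0.02) and Ngp (0.13 ± 0.02) did not pass, and their CPM was lower in vehicle libraries.

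Of 18 genes of glycolysis 7 rose in immature neutrophils and none fell, and of 43 genes of the type I interferon response 10 rose and none fell. With library totals alone, which moved the median log2 change by -0.27, these counts were 1 and 0, and 6 and 4, so the direction of the interferon list (median 0.23, and -0.04 on library totals) is not settled in this stage. S-phase genes fell in 6 of 37 cases and rose in 1, and with library totals alone in 17 and 0, while DESeq2 called none, with 6 of 38 at an unadjusted p under 0.05, 5 of them lower. G2/M-phase genes rose in 4 of 42 cases (Cenpe, Ube2c, Mki67 and Ccnb2) and fell in 1, with a median log2 change of 0.12, and with library totals alone 3 fell and none rose. Over all genes, library totals gave 189 higher and 1478 lower, and DESeq2 265 and 115.

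In mature neutrophils, 422 of 11010 genes were higher (3.83%) and 398 lower (3.61%). Wfdc17 rose from 504 and 407 to 4826 and 4823 CPM, a log2 change of 3.45 ± 0.04 (adjusted p = 7.36e-59, edgeR). Igfbp6, which binds insulin-like growth factors, rose from 6.76 and 5.07 to 79.0 and 71.3 CPM, and Prok2 from 57.6 and 49.7 to 294 and 277. Ifitm1 rose from 694 and 738 to 3538 and 3371 CPM. Each of these genes stood several times higher in both vehicle libraries than in either WT library. Groups without overlap were a condition for naming the largest changes. Steap4, a metalloreductase, rose by 2.07 ± 0.06 on the log2 scale, the cytokine Mif by 2.04 ± 0.13, Zfp36l1, an RNA-binding protein that destabilizes mRNAs, by 2.53 ± 0.15 and Il4ra, a chain of the IL-4 receptor, by 1.43 ± 0.09.

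Of 18 genes of glycolysis 9 rose in mature neutrophils and none fell, with a median log2 change of 0.47, where the median over all genes was -0.01. Tpi1, triosephosphate isomerase, rose from 34.1 and 32.8 to 86.7 and 79.8 CPM, and Ldha, lactate dehydrogenase A, from 123 and 126 to 225 and 227. The glucose transporter gene Slc2a1 rose from 50.8 and 55.4 to 86.4 and 83.8 CPM. Library totals alone still gave 8 of 18 higher and none lower. Of 24 suppressor-cell effector genes 8 rose and 1 fell, but the inducible nitric oxide synthase gene Nos2 was rare, with no UMI in either WT library, which allows up to 0.965 and 1.01 CPM for counting error alone, and 3.30 and 3.08 CPM in the vehicle libraries. Cd274, which encodes PD-L1, did not pass the threshold (0.03 ± 0.19), nor did Arg2 (-0.16 ± 0.03).

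Sntb1 fell from 67.9 and 70.6 to 14.5 and 11.98 CPM, a log2 change of -2.35 ± 0.12 (adjusted p = 1.24e-23, edgeR). Ctnna3, an alpha catenin, fell from 69.2 and 74.0 to 16.5 and 17.1 CPM, and Gpr141, an orphan G protein–coupled receptor, from 231 and 237 to 71.2 and 76.9. Slc7a11, the cystine-glutamate antiporter, fell from 309 and 315 to 120 and 117 CPM. Fkbp5 and Tsc22d3, both known as glucocorticoid-induced genes, fell by 1.46 ± 0.08 and 1.18 ± 0.06 on the log2 scale. Cxcr4, the receptor that holds neutrophils in BM, stood at 104 and 99.3 CPM in WT against 51.5 and 63.8 in vehicle libraries, a log2 change of -0.75 ± 0.09 (adjusted p = 2.91e-10, edgeR). Cxcr2, its counterpart for release, changed by 0.22 ± 0.03 and did not pass the threshold of size.

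The mature class was made of unlike clusters in the groups. A cluster led by Il1b, Acod1 and Rsad2 held 16.1% and 14.6% of mature neutrophils in WT against 55.7% and 54.3% in vehicle libraries. Another led by Ccl6, Clec4d and Slc7a11 held 78.6% and 80.6% against 37.0% and 38.6%. DESeq2 called 268 genes higher and 236 lower, and no library left out moved the count of calls by more than 1.5 times.

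Of 9915 genes tested in each of the 3 neutrophil stages, 60 were higher and 19 lower at every stage, and 6 were higher in one stage and lower in another. Ifitm1, Ifitm2, Ifitm3, Wfdc17, Prok2, Upp1, Tspo, Il4ra and Lrg1 were among the 60. So were Csf2rb and Csf2rb2, near-identical copies of the shared beta chain of the GM-CSF, IL-3 and IL-5 receptors, which counting may not separate. Csf2rb rose by 0.89 ± 0.08 in pro/preNeu, 1.03 ± 0.05 in immature and 0.55 ± 0.05 in mature neutrophils on the log2 scale. Thbs1, Sntb1 and Gpr141 were among the 19. The 3 fits share no cells but share libraries, so the stages are not independent of each other. The part of RNA from later stages in the pro/preNeu sums, and so in these counts, was not tested.

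**Figure D3:**
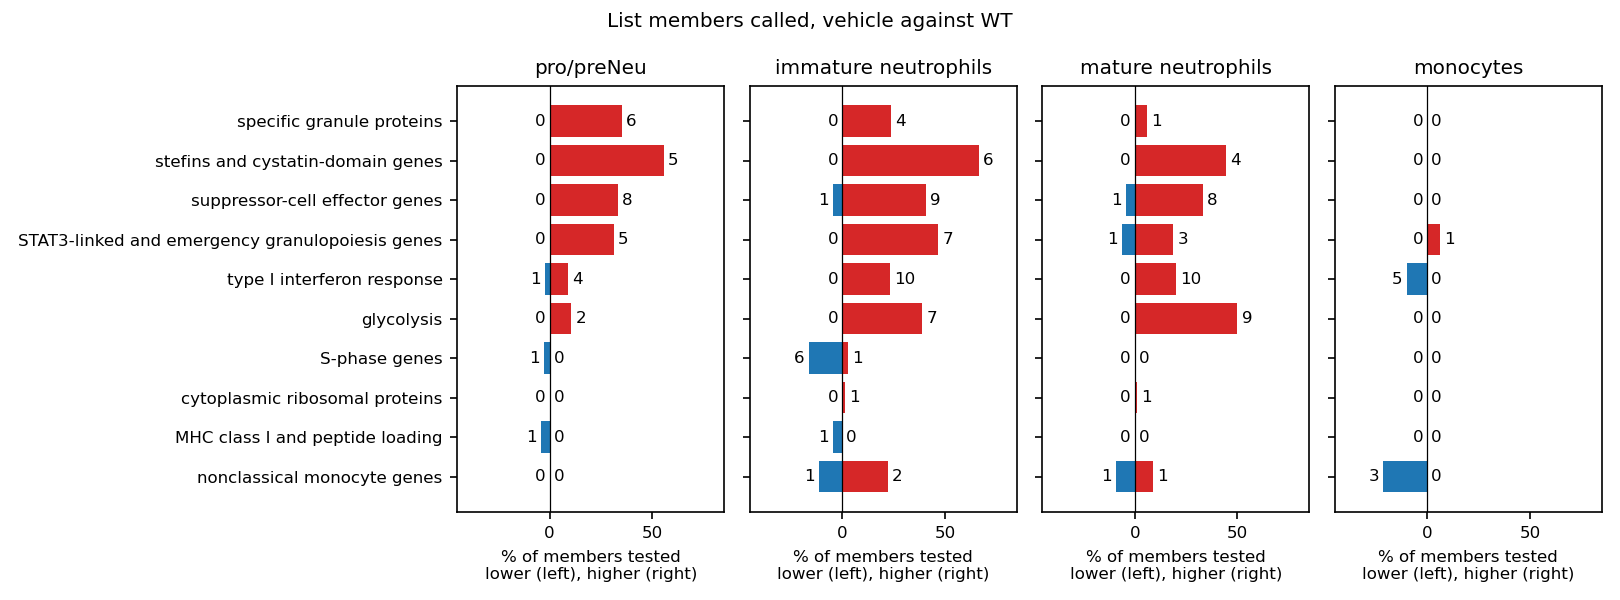
Members of 10 gene lists called higher (to the right) or lower (to the left) in vehicle than in WT libraries, as a percent of the members tested, in the 3 neutrophil stages and in monocytes. The number beside each bar is the count of members called. In mature neutrophils 10 of 50 interferon genes were higher and none lower, and in monocytes 5 of 50 were lower and none higher, a count that was 0 when the 4 WT and vehicle libraries were clustered alone.

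Fewer genes were called in monocytes than at any neutrophil stage. In 315, 326, 237 and 250 cells (WT libraries first), 48 of 10776 genes were higher (0.445%) and 40 lower (0.371%). Vehicle monocyte sums held 2644480 and 2663990 UMIs against 6975810 and 8766320 in mature neutrophils, and WT sums 3232930 and 3405390 against 3108060 and 2960250. The part of depth in these counts was not tested. Summed neutrophil markers of monocytes stood at 9660 and 10581 CPM in WT against 11169 and 10385 in vehicle libraries, and the ranges overlapped. Camk2d, a calcium-calmodulin–dependent kinase, rose from 124 and 117 to 266 and 255 CPM, a log2 change of 1.09 ± 0.07 (adjusted p = 1.52e-11, edgeR). Atp11a, a phospholipid flippase, rose from 26.3 and 18.2 to 64.7 and 75.1 CPM. The immediate early gene Egr1 rose from 18.6 and 22.9 to 49.9 and 50.3 CPM, and the stress gene Ier3 from 27.2 and 22.3 to 57.9 and 70.2, while Nfkbia (-0.62 ± 0.09) and Dusp1 (-0.50 ± 0.10) of the same list of 23 tested genes were called lower (list median -0.013). Dusp1 lost its call without WT replicate 1 (-0.50), WT replicate 2 (-0.50) or vehicle replicate 1 (-0.44), with DESeq2 and with the 4 WT and vehicle libraries clustered alone (-0.43). For Camk2d, Atp11a, Egr1 and Ier3 both vehicle libraries lay above both WT libraries, a separation that the rule for naming the largest changes requires. Fdps, an enzyme of isoprenoid synthesis, rose by 0.79 ± 0.12 on the log2 scale.

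Tsc22d3 fell in monocytes from 151 and 132 to 65.4 and 75.5 CPM, a log2 change of -1.02 ± 0.10 (adjusted p = 4.01e-08, edgeR), and Fkbp5 from 102 and 77.5 to 54.1 and 47.7. Thbs1 fell from 49.5 and 58.4 to 25.0 and 29.6 CPM, with a log2 change of -1.001 ± 0.15 against -3.73 ± 0.21 in mature neutrophils. The difference between the classes in the change of Thbs1 was 2.66 ± 0.27 (adjusted p = 1.83e-15, edgeR). Of 14 nonclassical monocyte genes 3 fell, namely Adgre4, the fractalkine receptor Cx3cr1 and Fabp4, and none rose, where 0.371% of all genes fell. The list median was -0.013, near the median over all genes of -0.004, so the list as a whole did not shift. The cluster led by Ace held 4.76% and 3.68% of WT and 4.64% and 3.60% of vehicle monocytes. Another with Adgre4 among its leading genes held 21.6% and 24.9% against 21.9% and 14.8%. Fabp4 rests on 22 and 27 UMIs in WT against 3 and 2 in vehicle libraries. The classical monocyte genes Ly6c2 (0.22 ± 0.04) and Ccr2 (0.15 ± 0.03) did not pass the threshold of size. DESeq2 called 20 genes higher and 15 lower, and neither Cx3cr1 nor Fabp4. Leaving out vehicle replicate 1 gave 26 and 31, and vehicle replicate 2 gave 33 and 22. Fabp4 lost its call without vehicle replicate 1, Adgre4 (-0.59), Cx3cr1 (-0.49) and Fabp4 without vehicle replicate 2, and Cx3cr1 (-0.50) and Fabp4 without WT replicate 2.

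Interferon-induced genes were called higher in mature neutrophils. Those called in monocytes depended on which cells the class held, and the mature class also held unlike clusters in the groups. Its cluster led by Il1b, Acod1 and Rsad2 made up 16.1% and 14.6% of WT against 55.7% and 54.3% of vehicle mature neutrophils. The part of this shift in the values of the interferon genes was not tested. Type I interferon acts through the ISGF3 complex, which binds the interferon-stimulated response element. In mature neutrophils 10 of 50 listed genes rose, where 3.83% of all genes did, and none fell, with a median log2 change of 0.34, where the median over all genes was -0.013. In monocytes 5 of 50 were called lower (Rsad2, Ifit1, Ifit3, Ifit2 and Herc6), where 0.371% of all genes were, and none rose, with a median of -0.15, where the median over all genes was -0.004. When the 4 WT and vehicle libraries were clustered alone, the monocyte class held 250, 290, 210 and 227 cells (WT libraries first), and edgeR called none of 49 tested, of which 11 had an unadjusted p under 0.05, 7 of them lower. DESeq2 on the main class also called none of 52, again with 11 at an unadjusted p under 0.05, 8 of them lower, and library totals left the 5 calls and added Oas1a as higher. By contrast, 13 of 47 rose and none fell in mature neutrophils of that clustering. Promoters of 3 genes are shown, those of Ifit1 and Rsad2, which have the calls in monocytes, and that of Oas1g, which rose in neutrophils. Each is the 250 bases before the first start that RefSeq lists for the gene on GRCm38.p6, 5′ to 3′ on the gene's strand, with matches to a pair of GAAA half-sites with 2 bases of any kind between them in capitals, on either strand. A match on the other strand reads as TTTC half-sites, and the matches of Oas1g overlap. Ifit1 lies at chr19:34640639-34640888 on the plus strand, Rsad2 at chr12:26456453-26456702 on the minus strand and Oas1g at chr5:120887614-120887863 on the minus strand.
Ifit1: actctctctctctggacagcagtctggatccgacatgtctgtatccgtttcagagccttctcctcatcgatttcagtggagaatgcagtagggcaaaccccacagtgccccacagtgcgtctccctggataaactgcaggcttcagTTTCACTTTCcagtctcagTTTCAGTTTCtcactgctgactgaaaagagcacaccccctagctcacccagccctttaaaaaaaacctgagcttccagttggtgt
Rsad2: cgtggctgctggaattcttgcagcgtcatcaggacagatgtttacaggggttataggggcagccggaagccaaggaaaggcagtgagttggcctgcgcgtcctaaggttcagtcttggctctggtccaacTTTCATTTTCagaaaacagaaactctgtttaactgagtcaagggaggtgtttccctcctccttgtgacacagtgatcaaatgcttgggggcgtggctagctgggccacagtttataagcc
Oas1g: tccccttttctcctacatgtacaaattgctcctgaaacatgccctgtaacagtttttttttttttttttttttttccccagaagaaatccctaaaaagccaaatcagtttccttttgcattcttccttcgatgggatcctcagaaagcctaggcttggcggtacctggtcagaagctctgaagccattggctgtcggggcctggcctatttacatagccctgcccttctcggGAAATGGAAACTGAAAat
Of 27025 genes with such a sequence, 3.04% hold the motif, against 19 of 41 genes of the interferon list (46.3%), 7 of the 8 with a sequence that rose in mature neutrophils (87.5%) and 3 of the 5 called lower in monocytes (60%). A match describes these letters and is not evidence of binding.

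Ifit1, an RNA-binding protein that blocks translation of viral RNA, stood in mature neutrophils at 41.5 and 50 CPM in WT against 73.0 and 60.6 in vehicle libraries, a log2 change of 0.58 ± 0.11 (adjusted p = 2.23e-05, edgeR). In monocytes it stood at 22.3 and 15.9 CPM against 6.05 and 5.63, a log2 change of -1.71 ± 0.27 (adjusted p = 7.91e-05, edgeR). It thus lay higher in both vehicle libraries in one class and lower in both in the other. With the 4 libraries clustered alone, its UMIs in the WT monocyte class were 21 and 18 in place of 72 and 54, while those of the vehicle class were 15 and 14 in place of 16 and 15. Its change in monocytes was then -0.24 (adjusted p = 0.855, edgeR), and DESeq2 gave no adjusted p for it. Its call in mature neutrophils was lost without WT replicate 1 (0.47) or vehicle replicate 1 (0.48), both still positive, and the difference of the changes was -2.38 ± 0.29 (adjusted p = 7.66e-12, edgeR), or -0.86 (adjusted p = 0.161, edgeR) with the 4 libraries clustered alone. Of 9625 genes tested in both classes, 29 were called in the same direction and Ifit1 alone in opposite directions. The reads of Ifit1, Ifit3 and their near-identical copies may be split by counting.

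Rsad2, the antiviral enzyme viperin, stood in monocytes at 18.6 and 14.1 against 1.89 and 2.63 CPM, a log2 change of -2.85 ± 0.35 (adjusted p = 2.65e-06, edgeR), while its change in mature neutrophils was 0.05 ± 0.08. With the 4 libraries clustered alone it was -2.19 in monocytes (adjusted p = 0.0381, edgeR), with 16 and 16 UMIs in WT against 1 and 5 in vehicle libraries, and DESeq2 gave no adjusted p. Ifit2 (-0.56), Ifit3 (-0.90) and Herc6 (-0.47) were not called in that clustering either, Herc6 lost its call without any 1 of the 4 libraries (-0.72 to -0.68) and Ifit3 without WT replicate 2 (-1.21) or either vehicle replicate (-1.50 and -1.75). The chemokine gene Cxcl10 stood in monocytes at 17.6 and 9.40 against 3.40 and 2.63 CPM, lost its call without WT replicate 1 (-1.65) or vehicle replicate 2 (-1.99), and had too few UMIs to be tested in that clustering. Oas1g, a 2′-5′-oligoadenylate synthetase, rose in mature neutrophils from 3.54 and 5.40 to 16.8 and 15.9 CPM, a log2 change of 1.92 ± 0.25 (adjusted p = 6.61e-09, edgeR), and its change in monocytes, 1.12 ± 0.32, did not pass (adjusted p = 0.0432, edgeR). Oasl2 rose in mature neutrophils from 16.7 and 13.2 to 53.8 and 44.5 CPM. Values of this list in monocytes thus lay on both sides of 0. The difference between the classes was called for Rsad2 (-2.98 ± 0.36), Oasl2 (-1.96 ± 0.25) and Isg15 (-1.13 ± 0.19), with the 4 libraries clustered alone too (-2.31, -1.68 and -0.88), although Isg15 (-0.78) lost its call without WT replicate 2. It was called for Herc6 (-0.82 ± 0.19) in the main clustering but not with the 4 libraries clustered alone (-0.49), without WT replicate 2 (-0.66) or without vehicle replicate 1 (-0.72), and not for Ifit2, Ifit3 or Oas1g (adjusted p = 0.072, 0.0728 and 0.282, edgeR). Over all 11926 genes of that test, 131 had a higher (1.1%) and 256 a lower (2.15%) change in monocytes, and without WT replicate 2 these counts were 90 and 141.

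**Figure D4:**
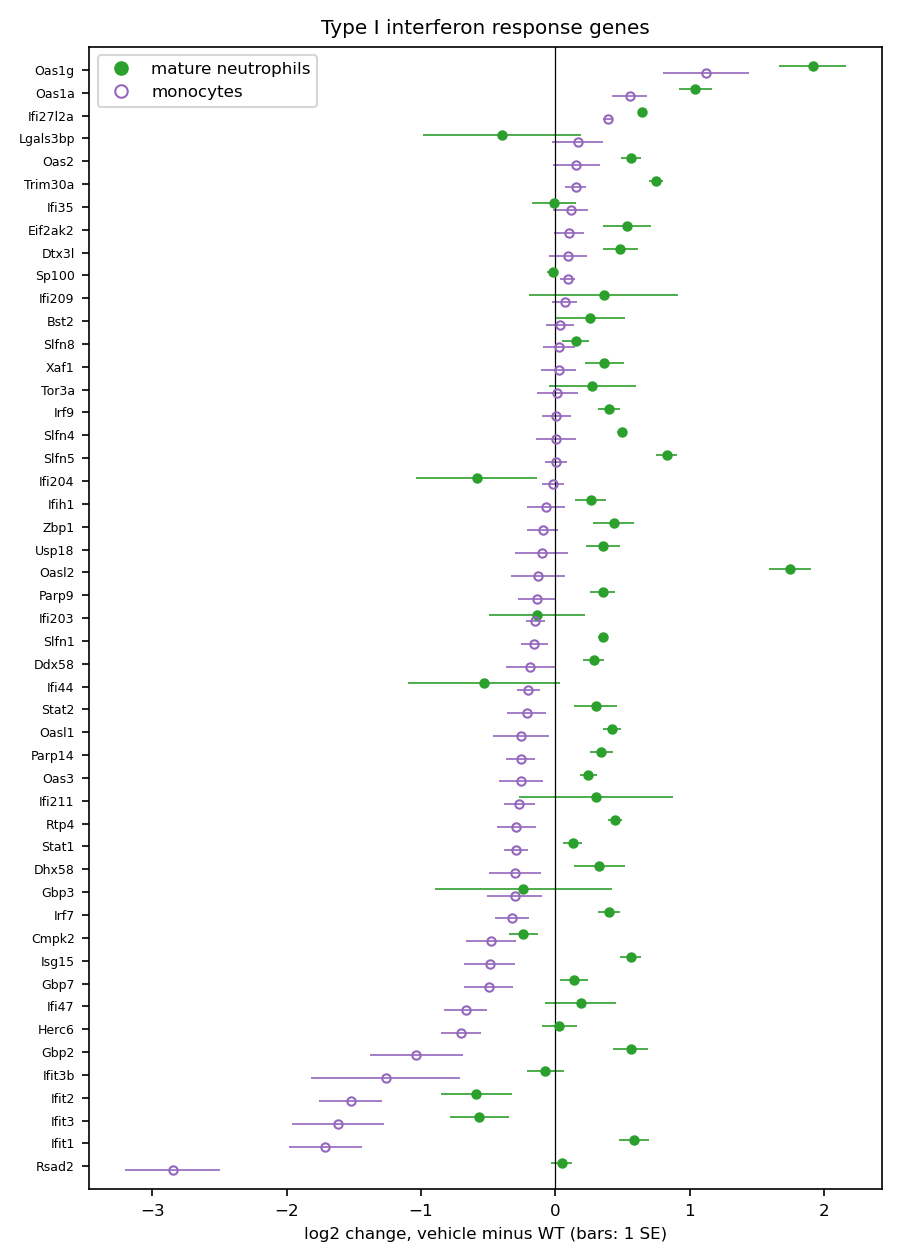
Log2 change, vehicle minus WT, of the type I interferon response genes tested in both classes, with bars of 1 SE, in mature neutrophils (filled) and monocytes (open). Rsad2 and the Ifit genes lie furthest to the left in monocytes, and Oas1g, Oasl2 and Oas1a furthest to the right in mature neutrophils.

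B cells past the precursor stage were few in tumor-bearing mice, 47 in each vehicle library against 277 and 310, so these sums rest on 129121 and 129607 UMIs against 786843 and 917805. Of 3922 genes tested, 6 were higher (0.153%) and 24 lower (0.612%). Of 11 MHC class II genes 3 fell and none rose, and of 20 peripheral B cell genes 3 fell and none rose. H2-Eb1, an MHC class II chain, stood at 1014 and 924 CPM in WT against 341 and 502 in vehicle libraries, a log2 change of -1.25 ± 0.19 (adjusted p = 2.06e-05, edgeR). Ighd, the IgD heavy chain, fell from 511 and 463 to 139 and 316 CPM, and Cd55, an inhibitor of complement, from 285 and 278 to 101 and 139. The chromatin organizer Satb1 stood at 337 and 341 against 85.2 and 162. March1, a ubiquitin ligase that removes MHC class II from the surface, fell from 372 and 384 to 54.2 and 92.6 CPM. In all 5 genes vehicle replicate 1, with the lowest values, lay further from WT than vehicle replicate 2.

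Ly6d, a surface protein known from B-committed progenitors, rose from 684 and 611 to 1456 and 1265 CPM, a log2 change of 1.03 ± 0.15 (adjusted p = 9.29e-06, edgeR), and Myl4, a myosin light chain, from 172 and 179 to 457 and 363. The receptor chain Cd79a (-0.03 ± 0.14) and Ms4a1, which encodes CD20 (0.18 ± 0.15), did not pass. Both are among the markers that named the class. The class held a cluster led by Ighd, Fcer2a and Cr2 that made up 39.0% and 38.4% of WT and 4.26% and 12.8% of vehicle B cells, 2 and 6 cells, and the part of this shift in the gene changes was not tested. Summed neutrophil markers in B cells stood at 13752 and 12567 CPM in WT against 13638 and 13950 in vehicle libraries. Other summed markers did not overlap between groups, at 11678 and 11197 against 13762 and 12499 CPM for pro- and pre-B cells, 1591 and 1570 against 2595 and 2268 for pDC, a list that holds Ly6d, and 3294 and 3053 against 1688 and 2407 for conventional dendritic cells, a list that holds the MHC class II genes H2-Aa and H2-Ab1. Their part in the gene changes was not tested. The count was 6 without vehicle replicate 1, 12 without WT replicate 1 and 4 with DESeq2, which did not call Ighd, Cd55, Satb1 or Myl4. A fit of the 4 libraries alone did not call Ighd, Cd55 or Satb1 either, and with those libraries clustered alone Cd55 (-1.08) was not called. Without vehicle replicate 1 the calls of H2-Eb1 (-0.98), Ighd (-0.65), Cd55 (-1.05), Satb1 (-1.09) and Myl4 (1.02) were lost. Ighd (-1.07) and Cd55 (-1.26) lost theirs without WT replicate 1, Cd55 (-1.30) and Ly6d (0.94) without WT replicate 2, and Cd55 (-1.53) without vehicle replicate 2. March1 was called each time.

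Few genes were called in pro- and pre-B cells. This comparison was added after the data were seen and used the 4 libraries alone, since the IACS-70654 libraries held fewer than 20 such cells. In 380 and 351 cells of WT and 91 and 107 of vehicle mice, 2 of 8797 genes were higher (0.0227%) and 5 lower (0.0568%). The genes of the stage did not pass the test. Igll1, Vpreb1, Rag1, Il7r and Ebf1 are among the markers that named the class, so their levels within it are partly set by the naming. The surrogate light chain genes Igll1 and Vpreb1 changed by 0.26 ± 0.10 and 0.06 ± 0.09, the recombinase gene Rag1 by 0.16 ± 0.14, the IL-7 receptor gene Il7r by -0.04 ± 0.09, Ebf1 by 0.005 ± 0.05 and the proliferation gene Mki67 by 0.16 ± 0.09. Ebf1 stood at 7434 and 7536 CPM in WT against 7913 and 7123 in vehicle libraries, which overlap. As a share of all cells the class was 4.6 times smaller. Lyz2, the myeloid lysozyme, fell from 709 and 445 to 397 and 372 CPM and F13a1, a factor of monocytes and platelets, from 88.9 and 39.0 to 23.5 and 22.6. Summed monocyte markers in this class were 464 and 341 CPM in WT against 279 and 269 in vehicle libraries, and their part in these 2 changes was not tested. Without the 5% of cells with the highest doublet scores in each library, the change of Lyz2 was 0.14 and that of F13a1 -0.55, and neither was called. Without WT replicate 1 they were -0.22 and -0.77, again not called. The count was 2 without WT replicate 1 and 1 with DESeq2.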

How the data were processed

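Cells of the BM were profiled by 10x Genomics single-cell RNA-seq. The authors aligned reads and counted UMIs with Cell Ranger (7.2.0 per the file headers) against mm10 and deposited raw UMI counts per gene and cell for each tagged sample. The submitters' processing notes also name Seurat. Aligner settings are not given in the sources used here.

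The members and gene lists were chosen with earlier results of these data known. The kept cells of the 6 CD45+ BM libraries were normalized, 2000 variable genes and 30 principal components were taken, and cells were clustered with Leiden (scanpy 1.11.5, leidenalg 0.10.2) at resolution 1 and, within neutrophils, 0.8. Clusters were named from fixed markers, so a difference from the study's own classes may come from these rebuilt names. Levels of such markers within their own class are partly set by the naming. Elane, Mpo, Ltf, Camp, Ngp, Cxcr2, Ly6c2, Ccr2, Cd79a and Ms4a1 are among them. The names are marker-based, and a class such as B cells means B cell–like clusters. Scrublet called 0.02% to 1.92% of cells doublets, fewer than 0.5% in 5 of 6 libraries, so it is not taken to have worked and doublets were kept.

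UMIs were summed per library and class and tested with edgeR 4.0.16 (R 4.3.3; filterByExpr, TMM, glmQLFit and glmQLFTest) over all 6 libraries, with Benjamini-Hochberg adjustment over all genes tested. Calls needed an adjusted p below 0.01 together with a change beyond 0.5 log2 units. Class shares were tested with the log of all cells as offset, called at an adjusted p under 0.05. Named genes were the 10 with the largest change in each direction among called genes with no overlap between groups and at least 50 CPM in the higher group, and up to 6 members of each list. Cxcr5, Cd274, Ly6c2, Igll1, Vpreb1 and Rag1, Ifit1 and Rsad2 in mature neutrophils and Oas1g in monocytes fall outside that rule and were chosen after their values were seen, as were the genes of the glucocorticoid paragraph. Genes with fewer than 3 UMIs in a vehicle library were not named in B cells. Some genes are not reported here. DESeq2 1.42.0 and limma 3.58.1 served as alternatives. On simulated counts with 200 changed genes, edgeR recovered 84.5% of them in the sums over all cells, 60% in mature neutrophils, 72.5% in monocytes, 27.5% in B cells and 18.5% in the test of the difference between monocytes and mature neutrophils. Whether these rates hold for the spread and the sizes of change in the measured libraries was not tested. The ± values are SEs derived from the edgeR test and include its estimate of the spread between libraries. The limit given for Nos2 covers counting error only.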

Additional observations from a re-analysis of the deposited data

Results flagged for a closer look

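Ifit1 was picked out because it alone was called in opposite directions in mature neutrophils and monocytes. The difference between the classes was tested too, and 131 genes had a higher and 256 a lower change in monocytes by that test. The value of Ifit1 in mature neutrophils was chosen after it was seen. The log2 change, vehicle minus WT, was 0.58 ± 0.11 in mature neutrophils and -1.71 ± 0.27 in monocytes, and the change in monocytes minus that in mature neutrophils was -2.385 (adjusted p = 7.66e-12, edgeR, 2 libraries a group). When the 4 WT and vehicle libraries were clustered alone, the change in monocytes was -0.24 (adjusted p = 0.855, edgeR) and the difference -0.86 (adjusted p = 0.161, edgeR), and neither was called. Without WT replicate 1 or vehicle replicate 1 the change in mature neutrophils was 0.47 and 0.48 and was no longer called. The mature class held more cells of the cluster led by Il1b, Acod1 and Rsad2 in vehicle (55.7% and 54.3%) than in WT libraries (16.1% and 14.6%), and the part of this shift was not tested.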

How the results depend on the processing

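Depth limits the small classes, such as B cells with 47 cells in each vehicle library. Causes of the shifts below were not tested. Library totals without TMM gave 6127 genes over all cells, 734 in pro/preNeu, 1667 in immature neutrophils and 3 in pro- and pre-B cells, in place of 3847, 464, 819 and 7. DESeq2 called 236 in pro/preNeu, 380 in immature and 504 in mature neutrophils, 35 in monocytes (main 88), 4 in B cells (main 30) and 1 in pro- and pre-B cells. Common class shares, tested with limma and without TMM factors, gave 609 over all cells. Fits of the 4 libraries alone called 7 in B cells. Clustering them alone left 4 in pro- and pre-B cells and none of the 5 interferon calls in monocytes, and Scrublet doublets left out gave 2. Without the highest doublet scores Lyz2 turned to 0.144 in pro- and pre-B cells, and among nonneutrophils T cells (-0.719) and stem and progenitor cells (0.698) lost their calls. All of the alternatives on library totals, doublet scores, crossed pairing and pro- and pre-B cells, and those on the difference beyond a fit of the 4 libraries, were added after the data were seen.

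TMM on class counts moved T cells to -0.393, basophils and mast cells to 0.788, monocytes to 1.126, pDC to 0.401 and stem and progenitor cells to 1.021 among all cells, and T cells to -0.245, basophils and mast cells to 0.936, pDC to 0.548 and pro- and pre-B cells to -0.213 among nonneutrophils.

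Leaving out 1 library gave 293 to 428 genes in pro/preNeu, 55 to 62 in monocytes, 6 to 23 in B cells, 2 to 10 in pro- and pre-B cells and 231 to 314 for the difference between monocytes and mature neutrophils (main 387). Stem and progenitor cells ranged from -0.962 to -0.7 of all cells and from 0.487 to 0.874 of nonneutrophils, and T cells from -0.94 to -0.452 of nonneutrophils.

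The replicate numbers were not stated to mark a shared day or pool, and deviations of same-numbered WT and vehicle libraries correlated at -0.125. With the replicate block 16 genes were called in B cells, without Ighd, Cd55 and Tsc22d3, and no other count moved by more than 1.5 times. With the pairing crossed the counts were 3842 over all cells, 508 in pro/preNeu, 813 in immature and 840 in mature neutrophils, 88 in monocytes and 20 in B cells.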

Other observations

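Fkbp5 and Tsc22d3 are known as genes that glucocorticoids induce. Tsc22d3 fell in immature neutrophils from 87.0 and 89.1 to 44.2 and 48.8 CPM (-0.65 ± 0.07 on the log2 scale), in mature neutrophils from 188 and 208 to 86.0 and 83.6 (-1.18 ± 0.06) and in monocytes (-1.02 ± 0.10). In B cells it stood at 227 and 209 against 62.0 and 108 CPM (-1.40 ± 0.30), a call that was lost without WT replicate 1 (-1.35), vehicle replicate 1 (-1.04) or vehicle replicate 2 (-1.86), in a fit of the 4 libraries alone and with DESeq2. Fkbp5 fell in immature neutrophils from 75.0 and 69.1 to 39.0 and 41.2 CPM (-0.57 ± 0.07), in mature neutrophils (-1.46 ± 0.08) and in monocytes (-0.84 ± 0.12), and in immature neutrophils it missed the threshold of size when the 4 libraries were clustered alone (-0.45). Neither gene passed in pro/preNeu (Fkbp5 -0.06 ± 0.07, Tsc22d3 -0.33 ± 0.09) or in pro- and pre-B cells (Fkbp5 -0.02 ± 0.28, Tsc22d3 -0.78 ± 0.24). These genes were set side by side after their values were seen, and hormone levels were not analysed here.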
